A study of Homo sapiens with 32 samples.

Results

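SM08502, an inhibitor of the CDC-like kinases (CLK), was given to 4 endometrial cancer cell lines, and 97 of the 35238 genes in the deposited expression table had higher levels than vehicle in every line. They were chosen by measured values, the group means of log2(CPM + 1), where CPM is reads per 1000000 counted. The rule asked for a mean over all 32 libraries of at least 1, an SM08502 minus vehicle difference above 0.2 in each line, and a mean of the 4 differences of at least 0.8. Of the 103 genes that met these thresholds, the rule set aside CLK1, CLK3, CLK4, CCDC150P1, DNHD1 and PYCARD by name, which left 97. CLK enzymes phosphorylate the SR proteins, which bind pre-mRNA and guide the choice of splice sites, and inhibiting them is known to change splicing and gene output together. Because SM08502 minus vehicle selected the genes, that difference is given below without a test. The tests rest on another pair of groups, the combination of both drugs against paclitaxel alone, whose 16 libraries the rule used only for the floor on the level. That floor averages in the combination libraries. Genes near it, such as VAMP5 (mean 1.014), DRP2 (1.12), DDN (1.178) and DCAF4L1 (1.363), reached it with the help of high libraries. For such genes the test is not independent of the rule.

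The study sequenced bulk RNA from 16 groups of 2 replicates, with cells plated in duplicate, so the spread between replicates may be technical. Ishikawa is labelled CTNNB1 wild type, and Ishikawa-S33Y, SNGM and HEC265 are labelled CTNNB1 mutated. CTNNB1 encodes beta-catenin, the transcriptional effector of the Wnt pathway, and the S33Y change removes a phosphorylation site that marks the protein for breakdown. All cells were treated for 24 h with 0.1% DMSO as vehicle, paclitaxel, SM08502 or both. Paclitaxel, a taxane, binds microtubules, keeps them from disassembling and blocks mitosis. Ishikawa received 11 nM paclitaxel and 80 nM SM08502, and Ishikawa-S33Y received 6 nM and 85 nM. SNGM received 11.7 nM paclitaxel and 350.7 nM SM08502, and HEC265 received 5.6 nM and 149 nM. Each dose was the one that halved viability in that line, so dose and line cannot be told apart, nor can the RNA input of 350 ng in Ishikawa and 500 ng elsewhere.

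In units of 1000000 reads, depth was 13.03 to 34.1 in 30 libraries (median 21.7). The second combination replicates were shallower, at 2.99 in Ishikawa-S33Y and 1.61 in SNGM, and 15 of the 97 genes had 0 reads in the SNGM library. Over 5107 well-expressed genes, replicates lay furthest apart in Ishikawa on paclitaxel, the baseline of the Ishikawa tests. Their root mean square log2 difference was 0.557. It was 0.446 in Ishikawa on SM08502, 0.369 in the SNGM combination and 0.084 in HEC265 on paclitaxel. Over the 97 genes it was largest in the SNGM combination (1.07). There Ishikawa on vehicle had 0.571, the Ishikawa-S33Y combination 0.541 and Ishikawa on paclitaxel 0.499. Of 12 epithelial and endometrial markers, 8 to 11 had a mean above 1 CPM in each line. The 7 stromal markers summed to 4.38 to 196 CPM in the other lines and to 715 to 1167 CPM in Ishikawa-S33Y, mostly COL1A1. The 4 endothelial markers summed to 1.15 to 11.1 CPM. Of 6 immune markers, which summed to 6.41 to 51.8 CPM, CD68 is one of the 97 genes and carried most of the signal, while the mean of PTPRC, which encodes the leukocyte antigen CD45, was 0.971 to 1.85 CPM per line. In bulk RNA, fewer cells of a kind and less RNA per cell cannot be told apart, and CPM are shares of a library and not absolute amounts.

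Expression levels of the 97 genes varied widely. Their mean CPM ran from 1.16 for VAMP5 to 151 for SAT1, with a median of 5.63 against 18.1 for the 17011 genes tested. All 97 passed the filter of CPM above 1 in at least 2 libraries, and 43 (44.3%) had a mean under 5 CPM, against 30.6% of all tested genes. AP000580.1 and TCP10L passed the filter only through libraries with SM08502, since their highest CPM on vehicle or paclitaxel was 0.906 and 0.863, so they had to differ and their differences are given as descriptions. The clone-named genes CH507-236L23.2 and CH507-338C24.2 had identical reads in every library and are 1 source of signal. The selecting difference had a median of 0.91 for Ishikawa, 1.17 for Ishikawa-S33Y, 0.80 for SNGM and 0.95 for HEC265. TRMT5 (0.8001), DNAH10 (0.8022) and DDN (0.8034) lay just inside the threshold on the mean, and DOK3 (0.7991), IFT20 (0.795) and IP6K2 (0.7882) just outside it. By the smallest difference in a line, SAXO2 (0.2019), SLX1B (0.2152) and RP11-295K3.1 (0.2161) lay just inside, and CASS4 (0.193), AQP6 (0.1569) and OR2A9P (0.1479) just outside.

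Promoters of the 97 genes varied widely in composition. RefSeq promoters of GRCh38.p14 (250 bases before to 50 after the annotated start) were found for 63 of the 97, and their GC content ran from 33.7% (OR2A7) to 82% (CDK9) with a median of 63%, against 64.7% for the 12436 tested genes with a promoter. The 250 bases before the start of 4 genes, chosen to show this range in genes described below, are given 5′ to 3′ on the coding strand. Capitals mark matches, on either strand, to the GC box (GGGCGG), the CCAAT box (CCAAT), the TATA box (TATAAA) or the ETS site (CCGGAAGT).
CDK9, chr9:127785784-127786033, plus strand: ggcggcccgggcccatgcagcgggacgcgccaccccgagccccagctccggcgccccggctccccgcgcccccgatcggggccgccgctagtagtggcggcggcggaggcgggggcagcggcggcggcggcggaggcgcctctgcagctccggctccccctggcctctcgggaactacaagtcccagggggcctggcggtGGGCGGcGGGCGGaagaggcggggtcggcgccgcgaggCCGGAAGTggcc
SAT1, chrX:23782923-23783172, plus strand: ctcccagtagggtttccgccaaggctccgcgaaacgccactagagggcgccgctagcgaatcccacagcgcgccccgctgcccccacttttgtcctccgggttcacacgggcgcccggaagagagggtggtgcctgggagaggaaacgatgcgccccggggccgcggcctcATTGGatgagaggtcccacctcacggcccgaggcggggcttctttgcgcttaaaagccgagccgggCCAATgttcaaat
EIF2B2, chr14:75002671-75002920, plus strand: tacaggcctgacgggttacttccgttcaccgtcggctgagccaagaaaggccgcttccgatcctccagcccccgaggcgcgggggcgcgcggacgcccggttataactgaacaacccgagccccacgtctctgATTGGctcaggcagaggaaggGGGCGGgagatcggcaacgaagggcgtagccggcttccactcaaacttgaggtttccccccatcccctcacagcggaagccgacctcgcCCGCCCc
LRRC70, chr5:62578569-62578818, plus strand: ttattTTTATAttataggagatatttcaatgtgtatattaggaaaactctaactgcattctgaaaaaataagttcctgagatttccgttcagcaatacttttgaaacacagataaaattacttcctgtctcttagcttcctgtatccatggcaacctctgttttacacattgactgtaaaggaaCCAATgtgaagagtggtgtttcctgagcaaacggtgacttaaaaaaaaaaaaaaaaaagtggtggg
The CDK9 window held 2 GC boxes and 1 ETS match and was 82% GC. SAT1 held 2 CCAAT boxes at 66.4% GC, and EIF2B2 held 2 GC boxes and 1 CCAAT box at 66% GC. LRRC70, which lies inside another gene, was 33.2% GC with 1 TATA box and 1 CCAAT box.

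Over the full 300 bases, a GC box was found in 35 of the 63 promoters (55.6%), against 66.8% of tested genes and 44.6% of all 27305 promoters in the table. The ETS match was found in 8 (12.7%), against 7.66% and 4.43%, and the CCAAT box in 21 (33.3%), against 36.3% and 35.7%. TATA boxes were found in 6 (9.52%), against 6.78% of tested genes. The AP-1 site (TGACTCA) was found in 4 (6.35%, against 3.26%), the NRF1 site in 5 (7.94%, against 10.43%) and the E-box (CACGTG) in 3 (4.76%, against 9.6%). The ATF4 element (TGATGNAA) was found in 1 promoter (1.59%, against 1.89%). The cAMP response element (TGACGTCA) and the YY1 site were found in 0 of the 63, against 3.03% and 1.72% of tested genes. A match is a description of these windows and not evidence of binding.

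Adding SM08502 to paclitaxel raised 90 of the 97 genes in the mean over the 4 lines and lowered 0 (limma, Benjamini-Hochberg adjusted p under 0.05). Without AP000580.1 and TCP10L, the count was 88 of 95, which still holds genes near the floor on the level. Over all 17011 tested genes, 25.7% were called higher and 19.1% lower in this comparison. The difference was above 0 for all 97 genes, against 54.4% of all genes. Its median was 0.91 on the log2(CPM + 1) scale, with a range of 0.29 to 2.001 and a median standard error (SE) of 0.11, against a median of 0.03 over all genes. A scale with 1 added to CPM understates the change of low genes. Without both shallow combination libraries 96 genes were called higher.

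**Figure D1:**
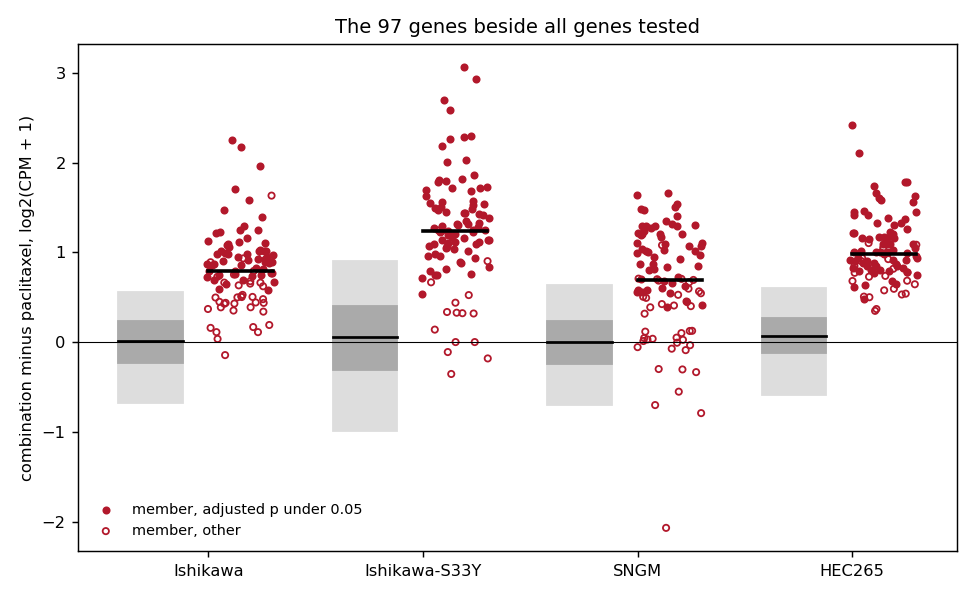
Combination minus paclitaxel in log2(CPM + 1) for each line. Points are the 97 genes (filled where called), thick lines their medians, and grey boxes the 5th to 95th and 25th to 75th percentiles of all 17011 tested genes; the gene medians are 0.80, 1.24, 0.69 and 0.98 from left to right, and the all-gene medians are at most 0.06.

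By line, Ishikawa had 59 genes called higher, where 8.3% of all genes were, and Ishikawa-S33Y had 81, where 22.1% were. Counts by line and by level include AP000580.1 and TCP10L, which had to differ, and both CH507 genes. SNGM had 56 (9.28% of all genes) and HEC265 75 (8.39%). Of the 97, 0 were called lower in each line, where 6.14%, 17.4%, 6.6% and 6.53% of all genes were, in the same order. The number with a difference above 0 was 96, 94, 85 and 97 in the same order. A group of 39 genes was called in all 4 lines, against 1.36% of all genes, and a further 20 in 3 lines, 23 in 2, 9 in 1 and 6 in 0. In 57 genes both combination libraries lay above both paclitaxel libraries in all 4 lines, against 6.55% of all genes. In SNGM the count was 66 without the shallow library, while without the deeper combination library, which leaves the shallow one alone, 51 were called higher and 13 lower, where 17.1% and 19.4% of all genes were. Fits to the libraries of 1 line alone called 3 genes higher in Ishikawa, where 0.0353% of all genes were, and 19 in SNGM, where 0.805% were.

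Calls in every line were counted by expression level. Of 23 genes with a mean of at least 20 CPM, 23 were called in the mean over lines and 21 in each of the 4 lines. Of 43 genes under 5 CPM, 39 were called in the mean and 8 in each line. Over all tested genes the share called higher in the mean was 30.7% and 17.6% in the same level classes.

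SAT1 encodes the enzyme that acetylates spermidine and spermine and starts their breakdown, and it was the most abundant of the 97 genes. It lies on the plus strand at chrX:23783173-23786210, and its promoter is printed above. In Ishikawa its CPM were 107 and 153 on paclitaxel and 303 and 302 on the combination. Ishikawa-S33Y had 51 and 51.3 against 150 and 154, SNGM 197 and 181 against 284 and 312, and HEC265 37.2 and 35.5 against 98.3 and 99.9. The groups did not overlap in any line. SAT1 rose by a log2 difference of 1.22 ± 0.06 (SE) in the mean over lines (adjusted p = 1.7e-11), and it rose less in SNGM than in HEC265 (difference -0.77 ± 0.18, adjusted p = 0.021) or Ishikawa-S33Y (-0.90 ± 0.18, adjusted p = 0.0017).

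**Figure D2:**
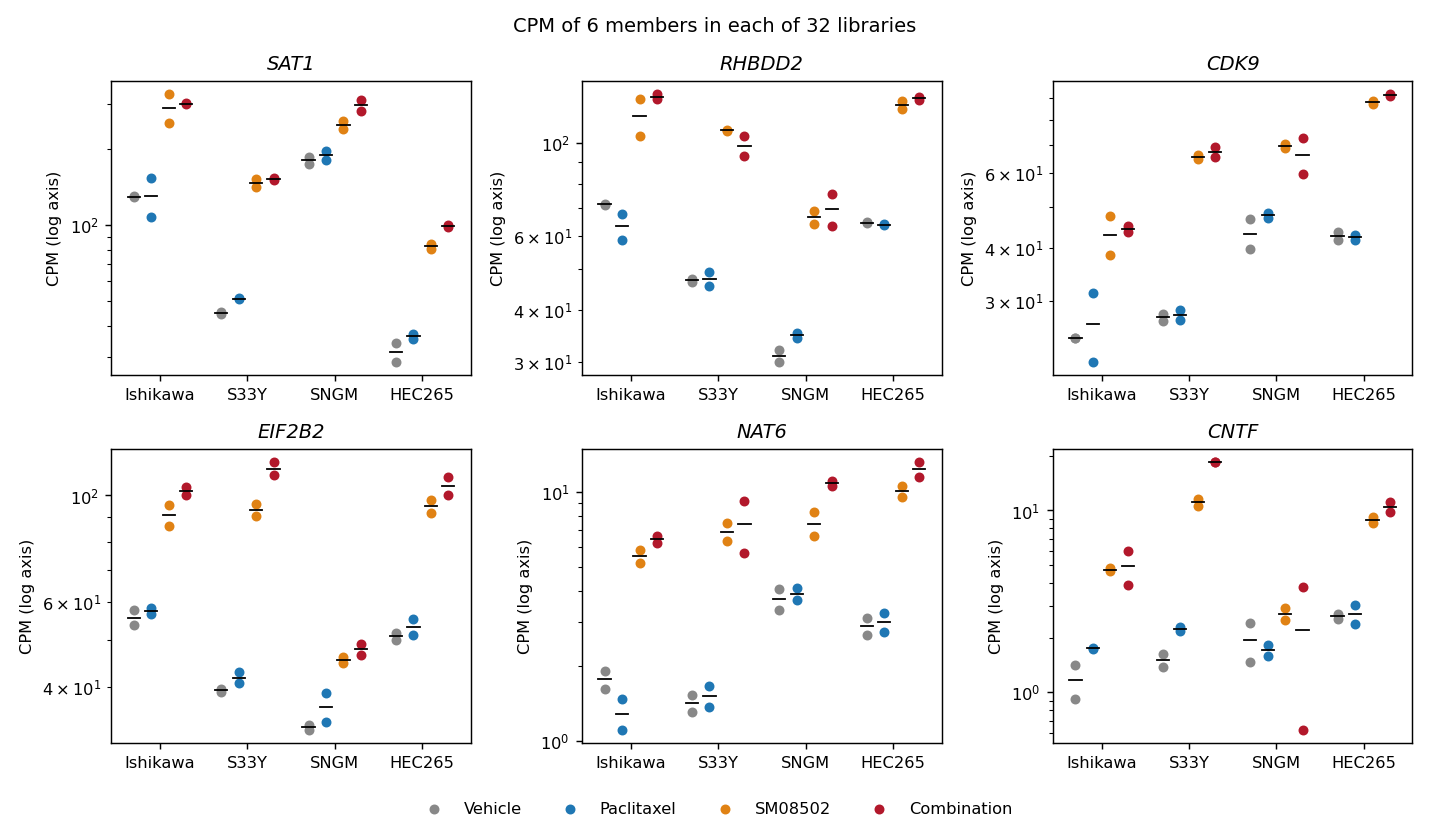
CPM (log axis) of 6 genes in all 32 libraries, 2 points per group with a bar at their mean, by line and treatment. SM08502 and combination points lie above all vehicle and paclitaxel points of the same line for these 6 genes except CNTF in SNGM, where the shallow combination library has 0.622 CPM.

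The other metabolic enzymes were described together, and all 12 genes placed in that class were called higher in the mean, with a median difference of 0.92. This class and those below were assigned by hand after names and values were seen. Over all classes 88 of 95 genes were called higher, leaving out AP000580.1 and TCP10L, against 25.7% of all tested genes. The class counts are descriptions and set no class apart. NAT6, whose product acetylates the N terminus of actin, had 1.1 to 1.46 CPM on paclitaxel in Ishikawa and 6.23 and 6.64 on the combination. In HEC265 its 2.73 and 3.27 CPM became 11.5 and 13.1. NAT6 rose by 1.61 ± 0.09 in the mean over lines (adjusted p = 2e-11) and by 1.27 to 1.74 in each line. TMPPE, SPR (sepiapterin reductase, which makes tetrahydrobiopterin), TSTA3 (GDP-fucose synthesis) and PRKAB2 (a subunit of the energy sensor AMPK) were called in all 4 lines, with mean differences of 1.10, 0.86, 0.93 and 0.90.

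AOC2 and AOC3, which encode neighbouring copper amine oxidases, both rose. AOC2 in HEC265 had 0.962 and 1.06 CPM on paclitaxel and 4.58 and 5.49 on the combination, and in Ishikawa 10.7 and 4.39 against 9.59 and 10.8. It was called in 3 lines, all but Ishikawa, where the replicates on paclitaxel were far apart. AOC3 was called in 4 lines, and the mean differences were 1.27 ± 0.13 and 1.14 ± 0.09. Reads of these similar genes may have been shared between them by the counting. DMGDH, a mitochondrial enzyme of choline breakdown, rose by 0.81 ± 0.14 in the mean, and RDH5, a retinol dehydrogenase, by 0.80 ± 0.19.

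Among genes of transcription and RNA, 15 of 16 were called higher in the mean. CDK9 is the kinase of P-TEFb, which releases RNA polymerase II into productive elongation, and it was the one gene of the 97 on a list of 21 elongation and cyclin-dependent kinase factors. Its CPM on paclitaxel and then on the combination were 31.4 and 21.6 against 43.8 and 45.1 in Ishikawa, 28.6 and 27.2 against 69.4 and 65.5 in Ishikawa-S33Y, 48.4 and 47.2 against 72.6 and 59.7 in SNGM, and 43 and 41.9 against 92 and 91.3 in HEC265. No line had overlapping groups. CDK9 rose by 0.88 ± 0.06 in the mean (adjusted p = 1.4e-09), and by less in SNGM (0.45 ± 0.13) than in Ishikawa-S33Y (1.25 ± 0.13; difference -0.79 ± 0.18, adjusted p = 0.0044). Of the 21 listed factors, 11 were called higher and 3 lower in the same comparison, with a median of 0.29, where 25.7% and 19.1% of all tested genes were.

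EIF2B2 encodes a subunit of eIF2B, the exchange factor that recharges eIF2 for translation. Its replicates were close: 56.7 and 58.3 CPM on paclitaxel against 104 and 100 on the combination in Ishikawa, and 40.7 and 42.9 against 117 and 110 in Ishikawa-S33Y. SNGM had 38.8 and 33.9 against 49.1 and 46.7, and HEC265 had 51.2 and 55.4 against 100.1 and 109. The rise was 0.90 ± 0.04 in the mean (adjusted p = 7.6e-12), largest in Ishikawa-S33Y (1.42 ± 0.09) and smallest in SNGM (0.39 ± 0.09). Those 2 lines differed by -1.03 ± 0.12 (adjusted p = 1.9e-05).

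PRPF3, a protein of the U4/U6 snRNP of the spliceosome, rose by 1.08 ± 0.06. In Ishikawa-S33Y it went from 31.9 and 31.7 CPM on paclitaxel to 79 and 78.9 on the combination. YAF2, a component of a Polycomb complex, rose by 1.02 ± 0.09, and SAP30L, related to a subunit of the Sin3 deacetylase complex, by 0.96 ± 0.08. NR1H3, the oxysterol receptor LXR alpha, rose by 0.92 ± 0.10, from 5.85 and 7.01 to 13 and 10.7 CPM in HEC265. The RNA-modifying or RNA-processing enzymes TRMT5, METTL6 and ELAC1 rose by 0.80 ± 0.05, 0.79 ± 0.06 and 0.88 ± 0.10 and were called in 4 lines each. The zinc finger genes ZNF782 (1.01 ± 0.07) and ZNF197 (0.91 ± 0.07) also rose, the second without a call in Ishikawa (0.39 ± 0.14, adjusted p = 0.058). SLX1B, a nuclease subunit gene with a near-identical copy, was not called (0.75 ± 0.32, adjusted p = 0.063).

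The immune and secreted group had 5 genes, all called in the mean, but not alike across lines. HLA-E, a class I molecule read by natural killer cells, had 51.5 and 41.6 CPM on paclitaxel and 81.3 and 76.5 on the combination in Ishikawa, and 79.1 and 75.6 against 164 and 168 in HEC265. It was called in all 4 lines, with a mean difference of 0.87 ± 0.07. CD68, a lysosomal glycoprotein best known from macrophages, rose in HEC265, from 9.5 and 9.34 to 38.2 and 50.4 CPM (2.11 ± 0.19, adjusted p = 2.5e-07). Ishikawa-S33Y had 3.81 and 4.54 against 5.91 and 3.68 CPM, and SNGM 20.4 and 24.9 against 29.3 and 20.5. The CD68 response in HEC265 exceeded that in Ishikawa by 1.60 ± 0.26 (adjusted p = 0.0019), that in Ishikawa-S33Y by 1.97 ± 0.26 (adjusted p = 5.7e-05) and that in SNGM by 1.99 ± 0.26 (adjusted p = 0.00017). In HEC265 the other 5 immune markers had mean CPM of 0.005 to 0.971, and their part in the result was not tested.

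CLEC11A, a secreted growth factor of bone and blood progenitors, was highest in HEC265, with 9.3 and 8.35 CPM on paclitaxel and 25.5 and 21.9 on the combination. It rose by 1.12 ± 0.12 in the mean and was called in 3 lines. C2, a complement protease, rose by 0.80 ± 0.18 and was called in Ishikawa-S33Y alone. All 13 signalling and membrane genes were called in the mean. CALML4, a calmodulin-like protein, was called in 4 lines, with 0.609 and 1.08 CPM on paclitaxel and 10.6 and 6.02 on the combination in Ishikawa-S33Y, and a mean difference of 1.53 ± 0.14. SLC10A5, related to the bile acid carriers, rose by 1.41 ± 0.10. RGS5, which speeds the shut-off of G proteins, rose by 0.71 ± 0.08, KCNAB1, a potassium channel subunit, by 0.98 ± 0.08, and ADORA2B, an adenosine receptor, by 0.67 ± 0.10.

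Genes of membrane traffic and folding were 5 of 5 called. RHBDD2, a rhomboid-family membrane protein, had nearly the same response everywhere. Its CPM went from 67.7 and 58.8 to 128 and 131 in Ishikawa, from 49.1 and 45.5 to 104 and 93.3 in Ishikawa-S33Y, from 34.3 and 35.2 to 75.4 and 63.5 in SNGM, and from 63.7 and 64 to 127 and 129 in HEC265. The differences by line lay between 0.97 and 1.04, with an SE of 0.10 each (mean 1.01 ± 0.05, adjusted p = 7.6e-12). SEC31B, a coat protein of vesicles leaving the endoplasmic reticulum, rose by 1.33 ± 0.11, and AP3S2, of the AP-3 adaptor, by 0.72 ± 0.06. VAMP5, a SNARE protein near the floor on the level, rose by 0.54 ± 0.16, with a call in Ishikawa-S33Y alone.

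Of 6 genes placed in the ubiquitin system, 5 were called in the mean. DCUN1D2, which promotes the neddylation of cullins, rose by 1.17 ± 0.06, the deubiquitinase gene USP30 by 0.85 ± 0.05, and the F-box gene FBXO36 by 0.97 ± 0.08, each in all 4 lines. DCAF4L1, a gene near the floor on the level, rose by 1.26 ± 0.21 in the mean, and in SNGM it had 3.82 and 0 CPM on the combination. CDRT1, another F-box gene, was not called in the mean (0.29 ± 0.13, adjusted p = 0.063) and was called in HEC265 (1.18 ± 0.25), where 3.81 and 4.02 CPM became 9.68 and 10.6. All 5 genes of the cilium and cytoskeleton class were called, among them the axonemal dynein gene DNAH10 (0.50 ± 0.11) and the dystrophin-related gene DRP2 (1.27 ± 0.10). DRP2 lay near the floor on the level.

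Genes without a coding name made up much of the remainder. AP000580.1, which passed the filter only through libraries with SM08502, had 0.519 and 0.906 CPM on paclitaxel and 6.53 and 6.87 on the combination in Ishikawa, 0.102 and 0.155 against 3.54 and 5.68 in Ishikawa-S33Y, 0.359 and 0.235 against 2.48 and 1.24 in SNGM, and 0.321 and 0.433 against 6.25 and 6.54 in HEC265. The mean difference was 2.001 ± 0.10, given with no test. RP11-141C7.2 (1.30 ± 0.08) and the pseudogene VDAC1P8 (1.22 ± 0.06) were also called in each line. Of the 14 clone-named genes 11 were called, and of the 7 pseudogenes 6 were. The 11 include AP000580.1, which had to differ, and both CH507 genes, which are 1 source of signal. Reads of pseudogenes may come from their parent genes.

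The 7 genes not called in the mean were a clone-named gene with 0.37 ± 0.52, RP11-514P8.6 (0.42 ± 0.29), RP11-140L24.4 (0.43 ± 0.20), BORCS8-MEF2B (0.36 ± 0.26), GUSBP9 (0.31 ± 0.23), CDRT1 and SLX1B. The first varied widely between replicates, with 21.15 and 0 CPM on vehicle in Ishikawa and 0 and 7.69 on the combination in HEC265. BORCS8-MEF2B, RP11-514P8.6 and RP11-140L24.4 each had 0 reads in the shallow SNGM library. Without both shallow libraries 1 of the 97 genes stayed uncalled.

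Position along the genome was compared next. By RefSeq, with 83 of the 97 and 16145 of the 17011 tested genes matched, 8 (9.64%) were the downstream gene of a readthrough locus, against 0.96% of tested genes. A readthrough locus is one in which transcription runs past the end of a gene into the next one on the same strand and the parts are spliced together. The 8 were CNTF, TCP10L, CMTM1, MEF2B, ZNF197, LRRC70, AP3S2 and RDH5. Of these, TCP10L had to differ, and MEF2B (mean 1.084) and LRRC70 (1.091) lay near the floor on the level. The locus itself was among the 97 genes in a further 2 cases (2.41%, against 0.477%), ZFP91-CNTF and BORCS8-MEF2B. SLX1B alone of the 97 was the upstream gene of such a locus, and its downstream partner SULT1A4 was called lower (-0.48 ± 0.19, adjusted p = 0.049). Of all 155 tested downstream genes, 38.7% were called higher, against 25.8% of 151 upstream genes, 16.9% of 77 readthrough loci and 25.8% of genes in no such class. Loci and genes with shared exons divide reads in a way set by the counting, so the split between them is uncertain.

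CNTF, the ciliary neurotrophic factor gene, rose by 1.34 ± 0.15 while ZFP91, the gene before it, fell by 0.21 ± 0.06 (adjusted p = 0.0097). CNTF had 2.28 and 2.17 CPM on paclitaxel and 18.4 and 18.4 on the combination in Ishikawa-S33Y, whereas ZFP91 averaged 243 ± 1.07 (SD, n = 2) and 176 ± 13.6. C21orf59, before TCP10L, fell by 0.39 ± 0.08, CKLF, before CMTM1, by 0.35 ± 0.12, and BORCS8, before MEF2B, by 0.30 ± 0.10, all with adjusted p under 0.05. ARPIN (-0.21 ± 0.10), IPO11 (-0.04 ± 0.07), BLOC1S1 (0.07 ± 0.11) and ZNF660 (0.18 ± 0.11) were not called. None of the 8 upstream partners was called higher, where 25.8% of all 151 tested upstream genes were. Over all tested genes, 19.1% were called lower. The partners were not tested as a set.

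**Figure D3:**
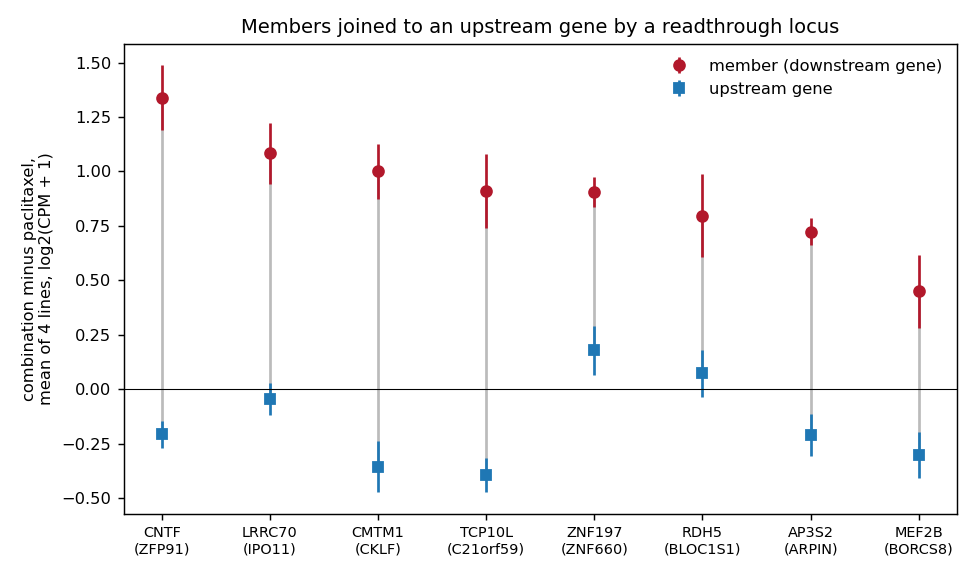
Combination minus paclitaxel, mean over 4 lines in log2(CPM + 1), for 8 genes downstream in a readthrough locus (circles) and the gene upstream of each (squares, named in brackets), with bars of 1 SE. Every circle lies above its square, which is partly built in because the circles were chosen for rising with SM08502. Of the squares, 4 are called lower, beside 19.1% of all tested genes. TCP10L passed the filter only through libraries with SM08502, and MEF2B and LRRC70 lay near the floor on the level. SLX1B and its downstream partner SULT1A4 are not drawn.

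Some of the genes lay inside other genes. Of the 83 matched, 16 (19.3%) lay wholly within another gene, against 7.32% of tested genes, and 10 of the 63 with a known strand (15.9%, against 2.39%) lay within a gene of the same strand. Both the 16 and the 10 include the 8 downstream genes of a readthrough locus named above, which their locus contains. These shares are thus no separate trait, and only OR2A7 and CTC-534A2.2 complete the 10. An overlap with any gene was found for 57.8%, against 59.7%, and an overlap on the opposite strand for 36.5%, against 36.3%. An overlap with a protein-coding gene was found for 42.2%, against 25%, and an overlap on the same strand for 27%, against 7.78%. The same-strand share includes the 8 downstream genes. These shares are descriptions, with no test. Their median span was 15057 bases, against 29189 for all matched genes. Without strand-specific counting, which is not given in the sources used here, reads of overlapping genes cannot be told apart. The share called in the mean was 46 of 48 among overlapping genes and 33 of 35 among the others.

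Of 34 overlapping genes that are not among the 97, 11 were called higher and 6 lower, with a median of 0.10, beside 27.7% and 17.5% of all tested genes that overlap another. TMPPE lies within GLB1, the gene of lysosomal beta-galactosidase. TMPPE had 13.2 and 12.8 CPM on paclitaxel and 40 and 38.1 on the combination in Ishikawa-S33Y, where GLB1 averaged 103.5 ± 6.91 (SD, n = 2) and 41 ± 2.12. TMPPE rose by 1.10 ± 0.08 and GLB1 fell by 0.96 ± 0.06 (adjusted p = 4.7e-10). The same opposite signs were seen for FKBP11 (1.08 ± 0.15) and ARF3 (-0.50 ± 0.06), for DCUN1D2 and TMCO3 (-0.38 ± 0.07), and for TRMT5 and SLC38A6 (-0.36 ± 0.11), each pair with both genes called. ANKRD18EP and SAYSD1 (0.50, adjusted p = 3.5e-05) and CALML4 and PIAS1 (0.39, adjusted p = 3.5e-06) rose together.

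Differences between paclitaxel alone and vehicle were small for most of the 97 genes. That comparison shares with the rule the vehicle libraries, which were chosen to be low, so values above 0 are partly built in and no test is given. In the mean over lines the median difference was 0.11 against 0.01 for all genes, and 82 of the 97 were above 0. That clone-named gene of wide replicate spread (0.81), RP11-140L24.4 (0.48) and ZFP91-CNTF (0.36) had the largest values. SAT1 in HEC265, for example, had 28.8 and 34.1 CPM on vehicle, 37.2 and 35.5 on paclitaxel, 80.8 and 84.5 on SM08502 and 98.3 and 99.9 on the combination. Its vehicle and paclitaxel values lay apart by far less than either did from those with SM08502. For SAT1 the mean paclitaxel difference was 0.11, for CDK9 0.06 and for RHBDD2 -0.01.

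Adding paclitaxel to SM08502 gave no call. That comparison shares with the rule the SM08502 libraries, which were chosen to be high, so values below 0 are partly built in and its counts are a description. In the mean over lines 0 were called, against 0.0411% of all genes called higher and 0.00588% lower. By line, 0 were called in Ishikawa-S33Y, where 0.0588% of all genes were higher and 0.0705% lower, and 0 in SNGM, where 0.235% were higher and 0.0176% lower. The median difference was 0.08 against 0.00, with 70 of 97 above 0. When the deeper SNGM combination library was left out, so that the shallow one stood alone, 7 genes were called higher and 7 lower in the mean, where 6.14% of all genes were called in each direction, and 9 higher and 29 lower in SNGM, where 13.8% and 15.7% were. The combination minus vehicle medians were 0.99 for Ishikawa, 1.30 for Ishikawa-S33Y, 0.81 for SNGM and 1.03 for HEC265, beside the SM08502 minus vehicle medians given above.

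**Figure D4:**
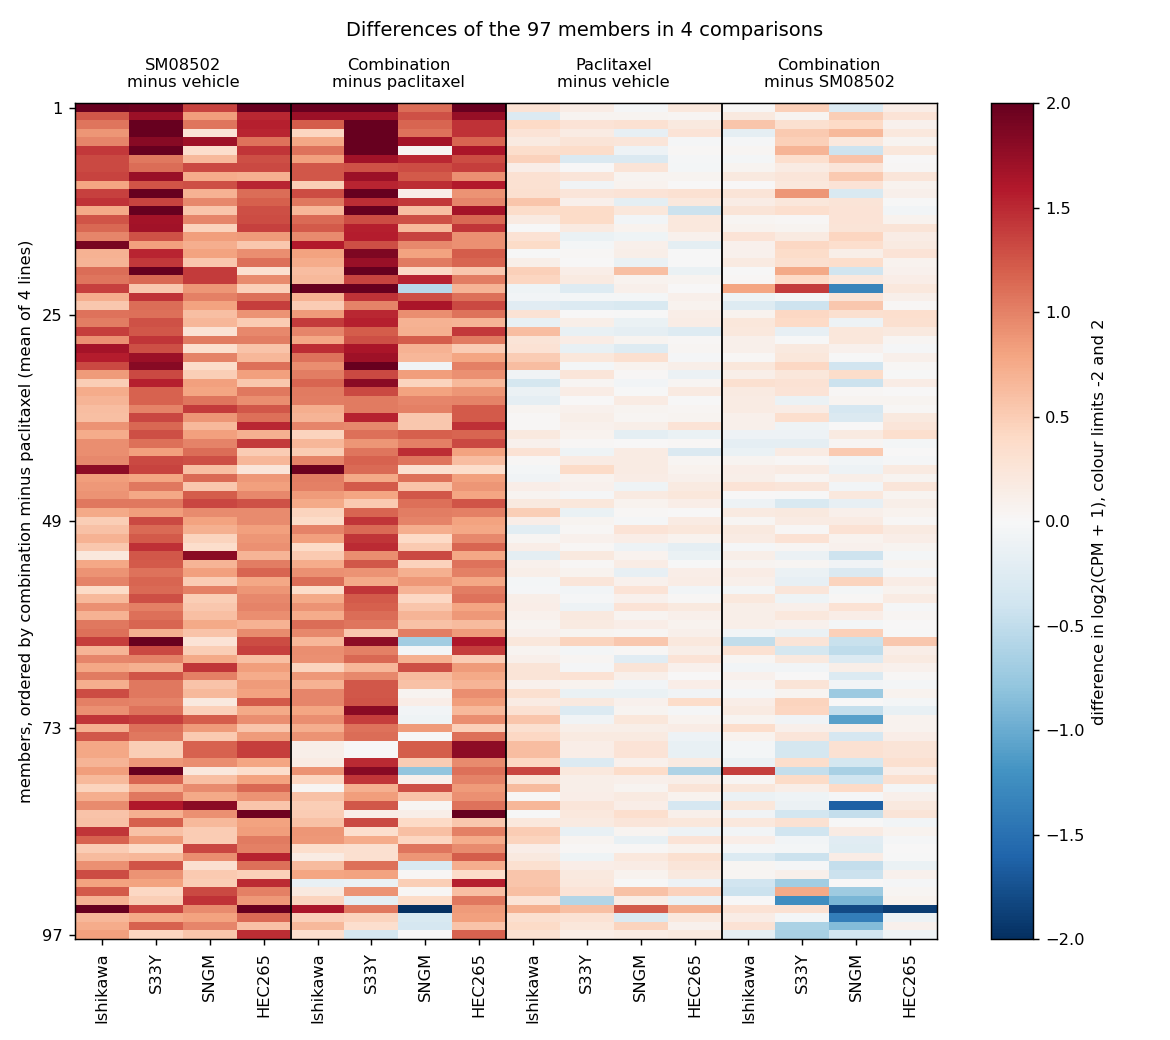
Differences in log2(CPM + 1) of the 97 genes (rows, ordered by combination minus paclitaxel in the mean over lines) in 4 comparisons and 4 lines. The first block selected the genes, the second is the test on other libraries, and the last 2 blocks, with medians over lines of 0.11 and 0.08, are close to 0 for most rows.

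The response to added SM08502 differed between Ishikawa-S33Y and Ishikawa for 13 genes, all 13 with the larger response in Ishikawa-S33Y. Over all genes, raised and lowered together, 4.47% had a larger and 4.83% a smaller response there. The rule used the SM08502 minus vehicle difference, which was larger in Ishikawa-S33Y (median 1.17) than in Ishikawa (0.91). The direction is thus partly built in. Responses of all genes also spread wider in Ishikawa-S33Y (95th percentile 0.9, against 0.562 in Ishikawa). CMYA5, a muscle-associated anchoring protein, had 1.62 and 0.558 CPM on paclitaxel and 2.14 and 2.09 on the combination in Ishikawa. In Ishikawa-S33Y it had 2.54 and 1.75 against 27.1 and 23.4. The responses differed by 2.44 ± 0.56 (adjusted p = 0.0092). SRRM5 had 1.62 and 0.348 against 2.26 and 0.97 CPM in Ishikawa and 1.57 and 1.39 against 25.9 and 12.4 in Ishikawa-S33Y, a difference of 2.50 ± 0.59 (adjusted p = 0.01). CNTF differed by 1.50 ± 0.42 (adjusted p = 0.029), EIF2B2 by 0.61 ± 0.12 (adjusted p = 0.0038) and DCUN1D2 by 1.06 ± 0.16 (adjusted p = 0.00049). Dose of both drugs and RNA input also differ between these lines, and their part was not tested.

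**Figure D5:**
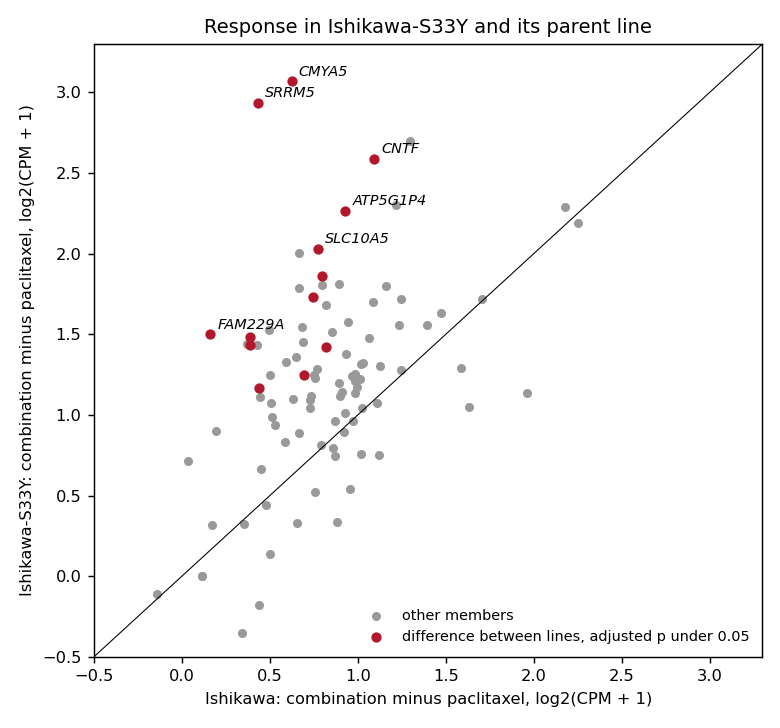
Combination minus paclitaxel in log2(CPM + 1) in Ishikawa-S33Y (vertical) against Ishikawa (horizontal) for the 97 genes, with the line of equality. Red points are the 13 genes whose responses differ by the test, all above the line, and CMYA5 and SRRM5 are the highest. That direction is partly built in, because the selecting SM08502 difference was larger in Ishikawa-S33Y.

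The count of 13 was 7 with a pseudocount of 0.1. In a fit to both Ishikawa lines alone it was 11, where 2% of all genes had a larger and 2.3% a smaller response. It moved both ways when libraries were left out. Apart from the fit to both lines alone, the shares of all genes are not given. These changes thus may not be particular to the 97 genes. Over the alternatives tried, SRRM5 lost its call in 3 of 17 (adjusted p 0.0012 to 0.14), CMYA5 in 1 of 17 (0.00052 to 0.098) and CNTF in 6 of 18 (0.0015 to 0.15). All 3 genes lost it with a pseudocount of 0.1. In the other 5 pairs of lines, 38 of the 97 genes differed in at least 1 pair, against 26.5% of all genes. The 38 include AP000580.1, which had to differ, and both CH507 genes, which are 1 source of signal. The share of all genes called was 3.37% for SNGM minus Ishikawa, 2.35% for HEC265 minus Ishikawa, 20.2% for SNGM minus Ishikawa-S33Y, 12.4% for HEC265 minus Ishikawa-S33Y and 3.43% for SNGM minus HEC265. Without Ishikawa-S33Y combination replicate 1, which leaves its shallow library alone, the calls were not all toward a larger response in Ishikawa-S33Y. On paclitaxel alone, 7 of the 97 genes were higher in Ishikawa-S33Y than in Ishikawa (20.5% of all genes were) and 32 were lower (27.1%).

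Lists of related pathways shared 1 gene, CDK9, with the 97. The calls below are for the combination against paclitaxel in the mean over lines, where 25.7% of all tested genes were higher and 19.1% lower (median 0.03). No list was tested against these shares. Of 55 splicing and RNA-binding regulators other than SRSF and CLK genes, 0 were among the 97, beside 97 of all 17011 tested genes. So few would be expected in a list of this size, and the list did not hold the spliceosome gene PRPF3, which is among the 97. Of the 55, 27 were called higher and 6 lower with the combination against paclitaxel (median 0.21). Of 22 p53 targets 11 were called higher and 0 lower (median 0.18), among them CDKN1A and GDF15. Of 20 integrated stress response genes 10 were higher and 2 lower (0.18), and of 13 tested nonsense-mediated decay targets and snoRNA hosts 5 were higher and 0 lower (0.13). Of 21 immediate early genes 8 were higher and 4 lower (0.04), and of 20 tested autophagy and lysosome genes 6 were higher and 4 lower (-0.02). Cholesterol genes were 3 higher and 12 lower of 22 (-0.29), Wnt targets 1 higher and 7 lower of 18 tested (-0.16), and microtubule and cilium genes 1 higher and 5 lower of 25 (-0.10). The CLK, CCNL and SRSF genes, which the rule left out whatever their values, were 9 higher and 5 lower of 18 (0.08).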

How the data were processed

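Libraries were made after ribosomal RNA depletion, per the labels' protocols. bcl2fastq, kallisto, STAR and GRCh38 are named in the submitters' processing notes, and their roles and strand setting are not given in the sources used here. The authors deposited log10(CPM + 1) values for 35238 genes. The log10 values were turned back to CPM, and every value came out as a whole number of reads within 0.1 reads. Differences were fitted on log2(CPM + 1) with limma 3.58.1 in R 4.3.3 (1 mean per group over all 32 libraries, intensity trend, two-sided moderated test). Genes with CPM above 1 in at least 2 libraries (17011) were tested, with Benjamini-Hochberg adjustment over all of them and a threshold of 0.05. Tables and plots were made with Python 3.11.15 and matplotlib 3.10.9, and the fit was tested on simulated data.

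The 97 genes, the lists and the tests were chosen with earlier results of these data known. Genes were named by the size of the combination minus paclitaxel difference (largest and smallest), by level, by line differences, by nearness to the thresholds, by list and by largest paclitaxel difference. Others were named to illustrate role classes, which were assigned by hand after the names and values were seen. Replicates were plated in duplicate, so p-values measure only the spread between these samples. Same-numbered replicates did not deviate together in all lines (correlation -0.66 in SNGM to 0.48 in Ishikawa for the combination and paclitaxel), so no block was used. Alternatives varied the pseudocount, filter, scaling, trend, block, samples and replicates.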

Additional observations from a re-analysis of the deposited data

Results flagged for a closer look

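The response to SM08502 added to paclitaxel (combination minus paclitaxel) was larger in Ishikawa-S33Y than in Ishikawa for 13 of the 97 genes by limma's interaction test. On the log2(CPM + 1) scale the responses differed by 2.50 for SRRM5, 2.44 for CMYA5 and 1.50 for CNTF. The difference was 1.34 for the pseudogene ATP5G1P4 and also 1.34 for FAM229A. It was 1.25 for SLC10A5, 1.10 for PLCD4, 1.06 for DCUN1D2 and 1.04 for ZNF197. The smallest were 0.98 for the pseudogene TPM3P9, 0.73 for C15orf40, 0.61 for EIF2B2 and 0.55 for TRMT5. The selecting SM08502 difference was larger in Ishikawa-S33Y, so the shared direction is partly built in. Drug doses and RNA input differ between the lines and cannot be told apart from the line.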

How the results depend on the processing

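Of 319 recomputed main counts, 297 stayed within 1.5 times the reported count. The rule gave 270 genes with a threshold of 0.6 on the mean, 32 with 1.0, and 78 to 110 when 1 replicate was left out. For combination minus paclitaxel, genes called higher were 57 of 61 in the mean and 53 of 61 in Ishikawa-S33Y with a filter on mean log2(CPM + 1) of at least 2, where fewer genes are tested. Fits to 1 line's samples gave 3 in Ishikawa and 19 in SNGM. Leaving out 1 replicate gave 88 to 96 in the mean, 41 to 51 for Ishikawa, 72 to 79 for Ishikawa-S33Y, 41 to 66 for SNGM and 56 to 64 for HEC265. The 13 genes that differed between Ishikawa-S33Y and Ishikawa became 7 with a pseudocount of 0.1, 21 with quantile normalization, 22 without both shallow libraries and 7 to 28 with 1 replicate left out. The 38 in the other pairs became 23 with the stricter filter and 24 to 65 with 1 replicate left out. For combination minus SM08502, leaving out both shallow libraries gave 1 call in the mean and 1 in Ishikawa-S33Y. Leaving out 1 replicate gave 0 to 14 in the mean, 0 to 6 in Ishikawa-S33Y and 0 to 38 in SNGM. With 1 replicate left out, the uncalled BORCS8-MEF2B ranged from -0.006174, without SNGM combination replicate 1, to 0.7254. The clone-named gene of wide replicate spread ranged from -0.02487, without HEC265 combination replicate 2, to 0.755. Where no reason is given, the cause was not tested.

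With the replicate number as a block, 90 genes were called in the mean, 58, 81, 58 and 75 by line in the order above, 11 between the Ishikawa lines, 39 in the other pairs and 32 on paclitaxel. With crossed numbers, chosen after seeing the data, the block gave 92 in the mean. limma voom on the recovered reads, also added after seeing the data, gave 96. The planned edgeR fit to those reads was not run. Depth limits genes of few reads in the shallow libraries, above all in SNGM.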
